A study of Arabidopsis thaliana with 18 samples.

Results

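BTSL1 (AT1G74770) and BTSL2 (AT1G18910) are a pair of Arabidopsis thaliana genes that encode ubiquitin ligases with iron-binding hemerythrin domains. Their transcripts were followed in roots of 3 genotypes at 2 iron supplies through 1 probe set each. These are 2 of 13286 genes to which the annotation used here gave a probe set of their own on the Affymetrix ATH1 array. Probe sets without a gene symbol in this annotation were given to no gene, so 13286 is not the number the array covers. They were taken by name, with earlier results of these data known. The plants were wild-type Col-0, a line in the Col-0 background that overexpresses the cucumber gene CsUBC13 (CsUBC13-OE), and ubc13A, a Col-0 line labelled ubc13-/-. UBC13 is the ubiquitin-conjugating enzyme that builds lysine-63-linked ubiquitin chains. Seedlings of all 3 genotypes were moved after 10 days to ES medium with iron (Fe) or to the same medium without FeEDTA, and whole roots were frozen 3 days later. Each of the 6 groups had 3 biological replicates, which gave 18 arrays. In the series the ubc13A arrays are numbered apart from those of the other lines, and the labels name no batch. Any difference in handling between these sets of arrays could not be told apart from the ubc13A genotype. The promoter of the transgene, the number of lines behind each genotype and any pooling of plants are not given in the sources used here.

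BTSL1 and BTSL2 belong with BTS (BRUTUS) to a small plant family of iron sensors. The amino-terminal hemerythrin domains bind iron, and the carboxy-terminal CHY and RING zinc fingers give the proteins ubiquitin ligase activity. In roots the family restrains iron acquisition by marking bHLH transcription factors of the iron response for degradation. BTSL1 and BTSL2 are known for expression in the outer layers of the root and for a redundant role, since iron uptake is released mainly when both are lost. Their own transcripts are known to accumulate under iron deficiency. The expression of a repressor together with the pathway it limits is a common form of negative feedback.

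All values are linear signal intensities of scaled arrays, on which the 2% trimmed mean was 500.04 on every array and the highest signal 36319.7. Arrays have no read depth, so the precision depends on the number of arrays and on the spread of each probe set. The signals were analysed as log2(signal + 16), and each log2 difference below is on that scale. A probe set was called when the p-value of limma, adjusted by the Benjamini-Hochberg method over all 22746 probe sets of a comparison, was under 0.05. The limma tests rest on 1 spread per probe set, pooled over all 18 arrays and moderated over all probe sets. Each probe set thus has the same SE in every difference between groups, whatever the spread of the groups compared. For BTSL2 the SD of a group on the log2 scale ran from 0.017 (ubc13A without Fe) to 0.33 (CsUBC13-OE with Fe). Correlations between arrays ran from 0.958 to 0.991. The array of CsUBC13-OE replicate 2 with Fe had the lowest quality weight of all 18, at 0.374, against 0.618 for the next lowest. Of 12 root markers 3 had a probe set of their own (PYK10, EXPA7 and Co2), and their summed signal lay between 14609 and 23762 in all groups. Of 10 markers of green tissue 4 were measured, with sums between 2436 and 4078 in Col-0, 1911 and 4017 in CsUBC13-OE and 1857 and 3140 in ubc13A. In Col-0 and CsUBC13-OE every green tissue sum with Fe was above every one without Fe, and RCA and LHCB4.1 were called lower without Fe in CsUBC13-OE. The part of this in the results was not tested.

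Whether the lines differed in UBC13 transcripts could be read only from a single probe set, which is annotated to both UBC35 (UBC13A) and UBC36 and so cannot be given to either. Its mean signal was 3782 and 3615 in Col-0 with and without Fe, 4089 and 4233 in CsUBC13-OE, and 2879 and 2725 in ubc13A. On it ubc13A stood at -0.40 relative to Col-0 (log2, SE 0.15) with and without Fe, and neither value was called (adjusted p from limma 0.393 and 0.308). The cucumber transcript was not analysed here.

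BTSL1 transcripts were about 5-fold more abundant in roots without Fe, in each genotype. With Fe, the BTSL1 signal in Col-0 was 1044.5, 1055.6 and 765.0 in replicates 1 to 3, and without Fe it was 5468.7, 4623.6 and 4394.6. In CsUBC13-OE the signals were 1119.1, 942.7 and 975.6 with Fe, and 5209.5, 4913.3 and 4910.1 without. In ubc13A they were 600.5, 845.5 and 855.1 with Fe, and 4109.1, 4357.0 and 4342.0 without. All 9 signals without Fe exceeded all 9 with Fe, the lowest of the former at 4109.1 and the highest of the latter at 1119.1. On the arrays with Fe the gene stood between the 75.2nd and 86.2nd percentile of all probe sets. Without Fe it stood between the 96.9th and 97.9th, so that the signal of this probe set was well above the lowest ones at both supplies.

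The log2 change of BTSL1 without Fe was 2.33 in Col-0 (SE 0.15, adjusted p from limma 1.15e-07), which is 5.02-fold with a 95% interval from 4.01 to 6.28. For CsUBC13-OE it was 2.29 (SE 0.15, adjusted p from limma 1.30e-07), or 4.90-fold. For ubc13A it was 2.47 (SE 0.15, adjusted p from limma 6.59e-08), or 5.54-fold. BTSL1 thus rose in all 3 genotypes. Ordered by log2 change among the 22746 probe sets, it ranked 56 in Col-0, 56 in CsUBC13-OE and 46 in ubc13A.

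BTSL2, the closest relative of BTSL1, rose about 4-fold. In Col-0 its signal was 611.8, 634.5 and 843.3 with Fe, and 2477.6, 3222.4 and 2384.8 without. In CsUBC13-OE it was 730.5, 531.7 and 841.6 with Fe, and 2843.9, 2477.2 and 2503.8 without. In ubc13A it was 733.6, 683.5 and 618.3 with Fe, and 3036.8, 2994.2 and 3064.8 without. Here too the supplies did not overlap in any genotype. Within groups BTSL2 varied most in CsUBC13-OE with Fe, with a coefficient of variation of 22.4%, and least in ubc13A without Fe, with 1.17%.

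The log2 change of BTSL2 was 1.93 in Col-0 (SE 0.17, 95% interval 1.57 to 2.29, adjusted p from limma 2.73e-06), which is 3.81-fold. In CsUBC13-OE it was 1.89 (SE 0.17, adjusted p from limma 2.94e-06), or 3.71-fold, and in ubc13A it was 2.14 (SE 0.17, adjusted p from limma 1.06e-06), or 4.40-fold. By log2 change BTSL2 ranked 68 in Col-0, 74 in CsUBC13-OE and 58 in ubc13A.

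Both genes were therefore called higher in each genotype. Of all 22746 probe sets, 4.26% were called in Col-0, 4.33% in CsUBC13-OE and 3.72% in ubc13A. By direction, 2.21% were called higher in Col-0, 2.22% in CsUBC13-OE and 2.09% in ubc13A, and 1.44% were called higher in all 3. The groups did not overlap, with the values without Fe higher, for 9.1% of probe sets in Col-0, 8.19% in CsUBC13-OE and 9.04% in ubc13A. Of the calls in Col-0, 51.9% were higher, against 63.2% after centring arrays on their median, and in ubc13A these shares were 56.2% and 68.6%. When replicates of Col-0 were paired by number, using these 6 arrays alone, 405 probe sets were called, against 595 on the same arrays unpaired and 970 with all arrays, and both genes stayed among those called. In these bulk roots a change in the number of cells that express a gene and a change in transcript per cell cannot be told apart.

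**Figure D1:**
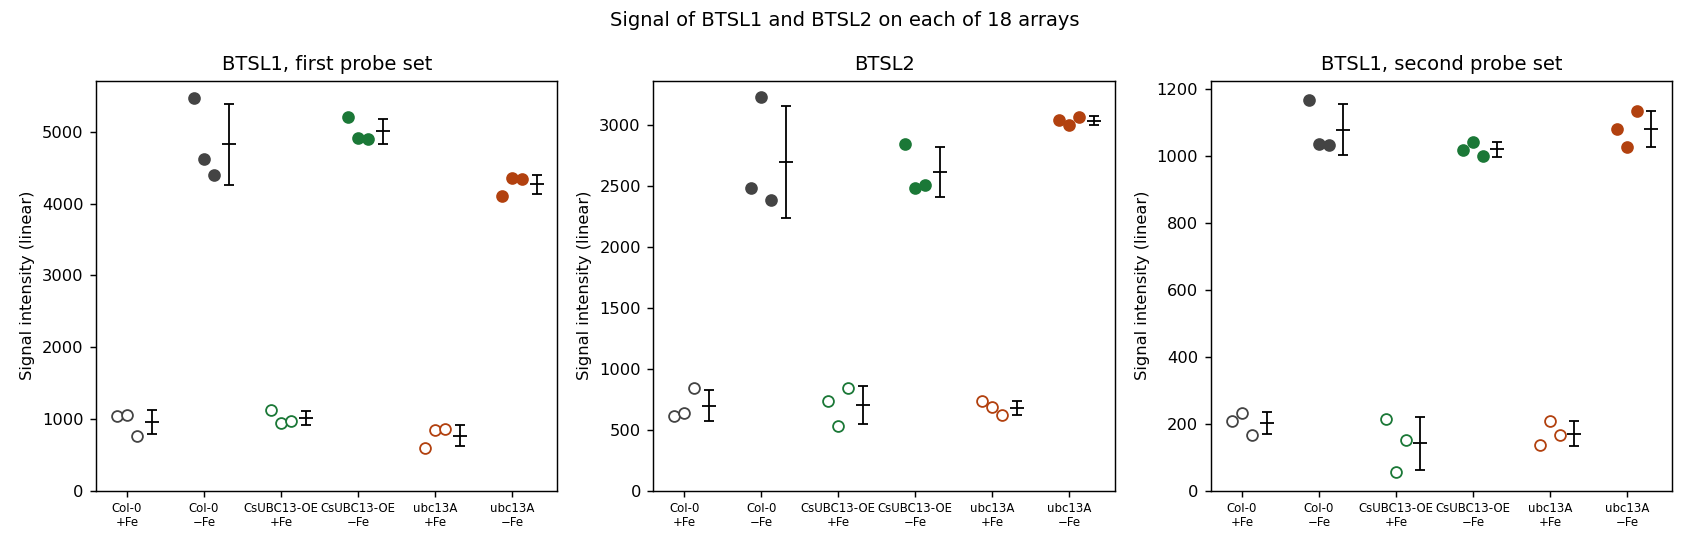
Linear signal intensity of BTSL1 (left), BTSL2 (middle) and a second BTSL1 probe set (right) on each array, with open points for arrays with Fe, filled points without Fe, and the mean ± SD of 3 arrays beside each group. In all 3 panels the filled points lie above all the open ones, and 1 array of CsUBC13-OE with Fe is low on the second BTSL1 probe set (55.7).

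A second probe set is annotated to BTSL1 as well and gave a further reading of the gene from the same RNA. Its existence was noticed after the plan for the tests had been written. Its signal in Col-0 was 207.3, 232.2 and 167.1 with Fe, and 1168.5, 1036.7 and 1032.1 without. In CsUBC13-OE it was 215.1, 55.7 and 151.5 with Fe, and 1018.2, 1041.9 and 998.7 without. In ubc13A it was 135.0, 208.2 and 167.6 with Fe, and 1081.9, 1027.9 and 1135.1 without. The supplies did not overlap in any genotype on this probe set either, and the single low value of 55.7 came from the array with the lowest quality weight. With Fe this probe set stood lower on the arrays than the first, between the 27.6th and 52.7th percentile.

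On this second probe set the log2 change without Fe was 2.34 in Col-0 (SE 0.29), next to 2.33 on the first BTSL1 probe set. It was 2.58 in ubc13A (SE 0.29) and 2.88 in CsUBC13-OE (SE 0.29), with adjusted p from limma 5.84e-05 and 1.35e-05, against 0.000119 in Col-0. Without the array of CsUBC13-OE replicate 2 with Fe, the change in CsUBC13-OE was 2.40 (SE 0.18). Deviations of the 18 arrays from their group means correlated between the BTSL1 probe sets with r = 0.55. This is a description, since both readings share the array, its scaling and its RNA.

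Whether BTSL1 and BTSL2 responded by unequal amounts was tested through their ratio within each array. The log2 ratio of BTSL1 to BTSL2 was higher without Fe by 0.38 on average over 9 arrays against 9 (exact permutation test, two-sided, with the supply permuted within genotypes, p = 0.0105; the smallest p of the 8000 rearrangements is 0.00025). The rearrangements did not keep the pairing of Col-0 arrays by replicate number, and a paired form of the test was not run. The shift was 0.40 in Col-0, 0.40 in CsUBC13-OE and 0.33 in ubc13A. It held with any 1 array left out, where the shift ran from 0.29 to 0.43. As a yardstick for the array itself, the 2 probe sets of BTSL1 differed in their Fe response by 0.23 on average, by 0.0088 in Col-0, 0.59 in CsUBC13-OE and 0.11 in ubc13A. Without the low array the value in CsUBC13-OE was 0.15. A ratio of 2 probe sets shows unequal change of their signals and not which transcript was more abundant.

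**Figure D2:**
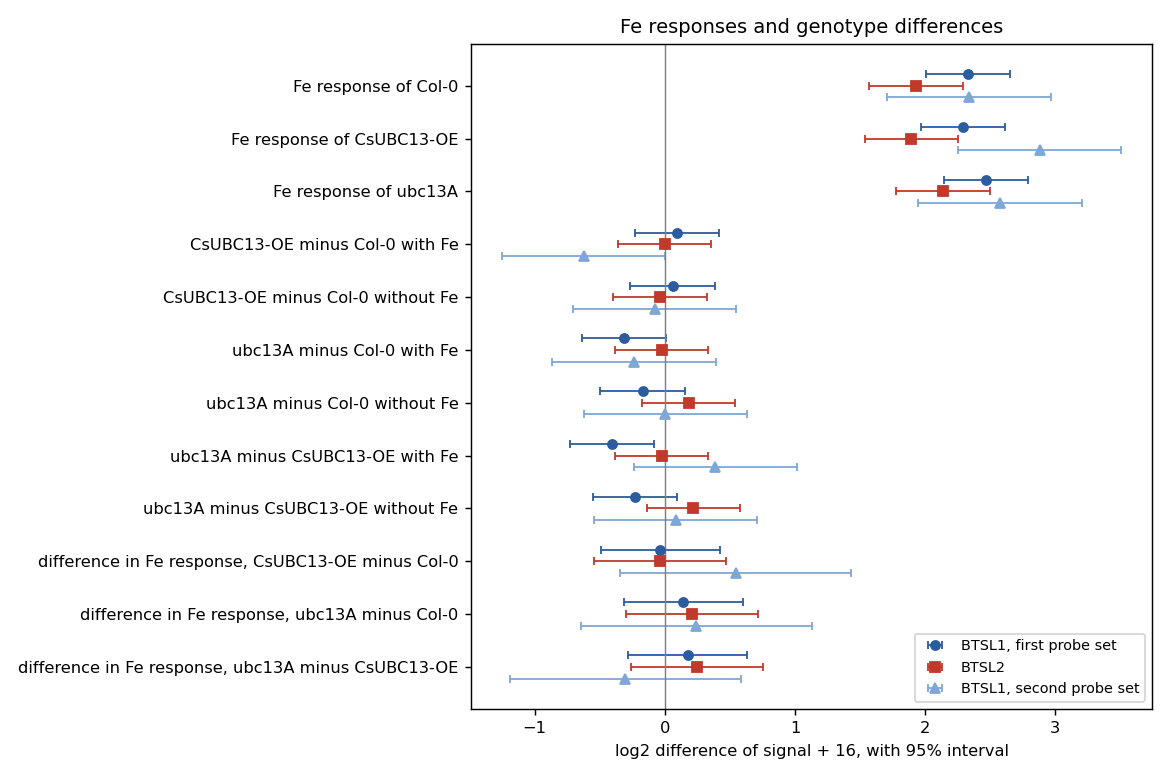
Log2 difference (horizontal axis, log2 of signal + 16) with its 95% interval for BTSL1, BTSL2 and the second BTSL1 probe set in each of 12 comparisons (vertical axis). The intervals of the 3 Fe responses lie far above 0, and those of the genotype differences include 0, except for BTSL1 on its first probe set between ubc13A and CsUBC13-OE with Fe.

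The study's other axis was the UBC13 genotype, and neither gene passed the test for it at either supply. In order of mean signal, BTSL1 ran from CsUBC13-OE (5011 ± 172, SD, n = 3) through Col-0 (4829 ± 566) to ubc13A (4269 ± 139) without Fe. With Fe the order of the genotypes was the same, 1012 ± 93.8, 955.0 ± 165 and 767.0 ± 144. Neighbours in this order at the same supply did not differ beyond the test. The order of BTSL2 without Fe was ubc13A (3032 ± 35.6), Col-0 (2695 ± 459) and CsUBC13-OE (2608 ± 204). With Fe its means were within 701.3 ± 157 for CsUBC13-OE, 696.5 ± 128 for Col-0 and 678.5 ± 57.8 for ubc13A. Here again no neighbours at the same supply passed the test.

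Against Col-0, CsUBC13-OE differed in BTSL1 by a log2 value of 0.094 with Fe (95% interval -0.23 to 0.42) and 0.059 without (-0.26 to 0.38). BTSL2 differed by -0.00039 with Fe (95% interval -0.36 to 0.36) and -0.037 without (-0.39 to 0.32). The second BTSL1 probe set had the opposite sign at both supplies, at -0.62 with Fe (95% interval -1.25 to 0.0046) and -0.078 without (-0.71 to 0.55), so the direction for BTSL1 was not settled. Over all probe sets 0.0132% were called between these lines with Fe and 0.0132% without. Pairing these lines by replicate number without Fe, on their 6 arrays alone, left 0 probe sets called by limma, against 2 on the same arrays unpaired and 3 with all arrays. All the groups overlapped in these comparisons.

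In ubc13A the BTSL1 values of the first probe set were below those of Col-0 on average at both supplies, without passing the test. BTSL1 differed from Col-0 by -0.31 with Fe (SE 0.15, 95% interval -0.64 to 0.011, adjusted p from limma 0.525) and by -0.17 without (SE 0.15, 95% interval -0.50 to 0.15, adjusted p from limma 0.725). Single arrays weighed on these values. Without ubc13A replicate 1 the difference with Fe was -0.15, and without Col-0 replicate 3 it was -0.46. Without Col-0 replicate 1 the difference without Fe was -0.079. Without Fe all 3 BTSL1 signals in ubc13A, at most 4357.0, lay below all 3 in Col-0, at least 4394.6. Groups that did not overlap in this direction made up 7.42% of all probe sets, and 0.0484% were called; with Fe, 0.0132% were called. On the second BTSL1 probe set the difference was -0.24 with Fe (SE 0.29) and 0.0045 without (SE 0.29), and the groups overlapped at both supplies. With Fe the summed root marker signal was 20534 to 23762 in ubc13A and 17814 to 17938 in Col-0, a sum made up mostly of PYK10 (log2 difference 0.37). The other measured root markers stood lower in ubc13A, Co2 at -0.88 and EXPA7 at -0.50, and limma called 0 of the 3, with 3 at an unadjusted p under 0.05. Of all 22746 probe sets, limma placed 2238 at an unadjusted p under 0.05 in this comparison. The part of the root markers in the BTSL1 difference was not tested. BTSL2 differed from Col-0 by -0.026 with Fe (95% interval -0.38 to 0.33) and by 0.18 without (-0.18 to 0.54).

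Between ubc13A and CsUBC13-OE the values were further apart, without passing the test. BTSL1 was lower in ubc13A by a log2 difference of -0.41 with Fe (SE 0.15, 95% interval -0.73 to -0.083, adjusted p from limma 0.321), and by -0.24 without ubc13A replicate 1. Without Fe the BTSL1 difference was -0.23 (SE 0.15, adjusted p from limma 0.725). At both supplies the 3 BTSL1 signals of ubc13A lay below the 3 of CsUBC13-OE, as for 5.46% of probe sets with Fe and 7.23% without. BTSL2 went the other way without Fe, by 0.22 (SE 0.17, adjusted p from limma 0.777), and its groups did not overlap, as for 9.98% of probe sets. At each supply 0.0484% of all probe sets were called between these lines. On the second BTSL1 probe set the differences were 0.39 with Fe and 0.083 without, opposite in sign to the first.

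The Fe responses of the lines were compared directly as the difference of their differences. For CsUBC13-OE against Col-0 the response differed by -0.035 in BTSL1 (95% interval -0.49 to 0.42) and by -0.036 in BTSL2 (-0.54 to 0.47). For ubc13A against Col-0 it differed by 0.14 in BTSL1 (-0.32 to 0.60) and by 0.21 in BTSL2 (-0.30 to 0.71). Between ubc13A and CsUBC13-OE the values were 0.18 (-0.28 to 0.64) and 0.24 (-0.26 to 0.75). None of these 6 values passed limma's test, where the smallest adjusted p was 0.968. Over all probe sets 0.0044% were called in the first of these comparisons and 0% in the others, where limma placed 1254 and 1162 at an unadjusted p under 0.05. In terms of fold, the BTSL1 response of ubc13A was 1.10 times that of Col-0, with an interval from 0.803 to 1.52, and the BTSL2 response 1.155 times (0.813 to 1.64).

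**Figure D3:**
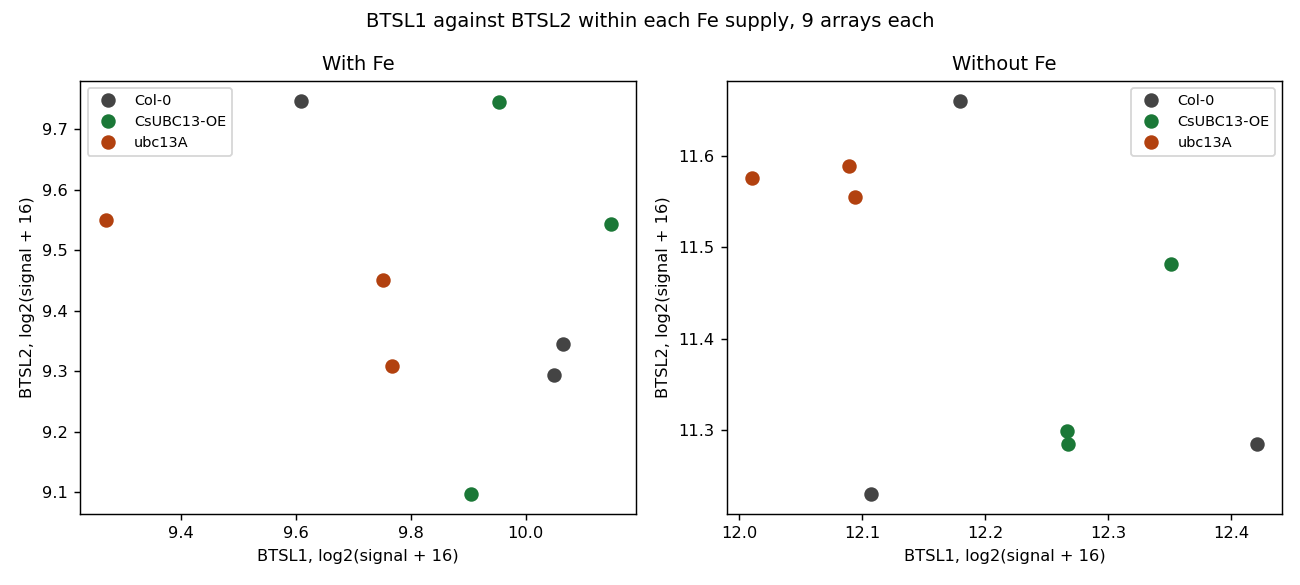
BTSL2 against BTSL1, both as log2(signal + 16), on the 9 arrays with Fe (left) and the 9 without (right), coloured by genotype. Within a supply the points show no shared rise of the 2 genes, and without Fe the 3 ubc13A arrays lie together at the lower end of BTSL1 and the upper part of BTSL2.

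Within a supply no correlation between the pair passed the test over 9 arrays, too few to show that there is none. The arrays of a supply pool the genotypes, so differences between genotypes and between replicates enter together. Without Fe, ubc13A had the lowest mean BTSL1 signal of the genotypes (4269) and the highest mean BTSL2 signal (3032). The part of the genotypes in the correlations was not tested. Over the 9 arrays with Fe, Pearson's r was -0.28 (permutation p = 0.468) and Spearman's rho -0.33 (permutation p = 0.379). Over the 9 arrays without Fe, r was -0.48 (permutation p = 0.185) and rho -0.50 (permutation p = 0.178). Adjusted over these 4 values the p-values were 0.468, 0.468, 0.370 and 0.370. Leaving out the 2 arrays farthest from the median of BTSL1 gave r = 0.18 with Fe and r = -0.51 without. Over all 18 arrays, which include the step between the supplies, r was 0.959. Deviations of these arrays from their group means correlated between the genes with r = -0.35, a description that was not tested. With the second BTSL1 probe set the sign turned in each case. The deviations then had r = 0.36, and Pearson's r within a supply was 0.38 with Fe and 0.062 without. The direction of any relation between the genes was thus not settled.

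The pair was set beside other genes of the iron response by their log2 changes without Fe. BTS, the third hemerythrin ligase, had no probe set of its own and is not reported. Of 4 further ligases with CHY and RING zinc fingers but no hemerythrin domain, 2 were measured and 0 were called in any genotype. AT3G62970 stood at 0.00097 in Col-0, -0.049 in CsUBC13-OE and -0.015 in ubc13A, and AT5G25560 at -0.28, -0.21 and -0.35. In limma, 0 of the 2 stood at an unadjusted p under 0.05 in any genotype. Of all 22746 probe sets, 3507 did so in Col-0, 3397 in CsUBC13-OE and 3797 in ubc13A. The median log2 change of all probe sets was -0.044 in Col-0, -0.043 in CsUBC13-OE and -0.043 in ubc13A.

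Among the bHLH transcription factors of iron homeostasis, 7 of 12 listed genes were measured, of which 3 were called higher in Col-0, 2 in CsUBC13-OE and 2 in ubc13A, and 0 lower. The list had a median of 0.26, 0.33 and 0.34 in these genotypes. BHLH101, which acts with FIT on uptake genes, rose by 4.63, 4.46 and 3.47, but its mean signal with Fe was at most 23.0, near the lowest signals, so the size of its change is set in part by the value of 16 added before the logarithm. PYE, a repressor of iron storage genes, rose by 1.58 in Col-0, 1.40 in CsUBC13-OE and 1.33 in ubc13A. ILR3 and BHLH115, which encode factors known as targets of the ligase BTS, had smaller values. BHLH115 rose in Col-0 by 0.38 (SE 0.097, adjusted p from limma 0.0388), a call that was lost in 8 of 15 alternative fits, where the adjusted p reached 0.180. Leaving out any single Col-0 array except replicate 3 with Fe ended this call. In CsUBC13-OE and ubc13A BHLH115 stood at 0.34 and 0.34. ILR3 stood at 0.26, 0.33 and 0.34 with adjusted p from limma 0.174, 0.0753 and 0.0656. Calls were also gained under other settings, for ILR3 in 6 of 15 fits of CsUBC13-OE and 4 of 15 of ubc13A, and for BHLH115 in 4 and 3, so the counts of 3, 2 and 2 do not separate the genotypes. BHLH34 stood at -0.30, -0.40 and 0.065, and BHLH104 at -0.055, 0.036 and 0.087.

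Of the 3 IRON MAN genes, which encode small peptides that compete with bHLH factors for binding to these ligases, IMA1 was measured. Its mean signal in Col-0 was 254.2 ± 65.3 with Fe and 3154 ± 212 without (SD, n = 3). IMA1 rose by 3.58 in Col-0, 3.74 in CsUBC13-OE and 3.11 in ubc13A. All 4 measured genes of 11 for uptake and coumarins were called higher in each genotype, with medians of 3.16, 3.08 and 3.24. They were F6'H1 and S8H, which encode enzymes of coumarin synthesis, with changes of 2.44 and 8.16 in Col-0, and COSY (1.31) and BGLU42 (3.88). The change of S8H is set in part by its low signal with Fe, 14.2 in Col-0. Of 12 genes for transport and storage, MTP8, a vacuolar metal transporter gene, was measured and rose by 4.92 in Col-0, 4.82 in CsUBC13-OE and 4.32 in ubc13A. The size of the MTP8 change also depends on its low signal with Fe, 53.0 in Col-0. Across other settings with all arrays kept, the MTP8 change in Col-0 ran from 4.17 to 5.29. For UBC13 and its partners 0 of 8 genes had a probe set of their own. The log2 changes of BTSL1 and BTSL2 thus stood above those of PYE and COSY in each genotype. They stood below those of F6'H1, IMA1, BGLU42 and MTP8, an order between genes that was not tested. F6'H1 was nearest above, at 2.44 in Col-0, 2.42 in CsUBC13-OE and 2.84 in ubc13A. The second BTSL1 probe set stood above F6'H1 in CsUBC13-OE (2.88).

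**Figure D4:**
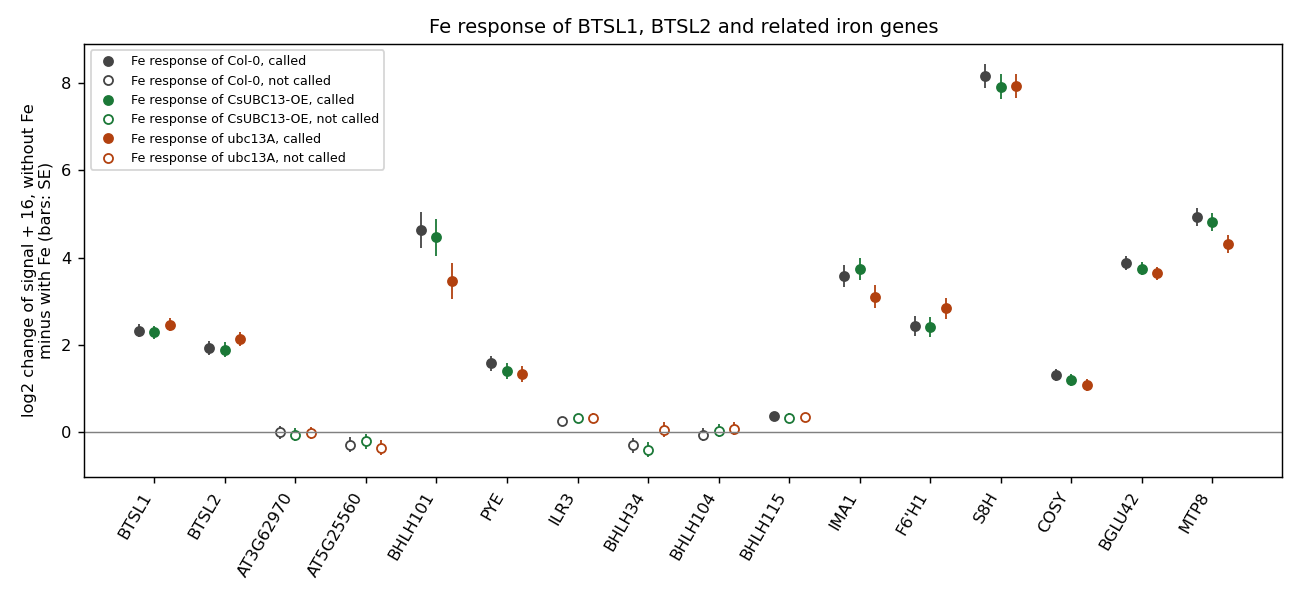
Log2 change of signal + 16 without Fe minus with Fe (vertical axis, bars are SE) for BTSL1, BTSL2 and related iron genes (horizontal axis) in the 3 genotypes, with filled points for changes called by limma and open points for the rest. BTSL1 and BTSL2 lie near 2 in each genotype, between PYE (1.58 in Col-0) and F6'H1 (2.44 in Col-0), with IMA1 higher (3.58 in Col-0).

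The genes whose profile over the 18 arrays was most like each member were ranked by Pearson's r among 13512 other probe sets that name 1 gene. These correlations are descriptions, and they rest mainly on the step between the supplies, which all these genes share. For BTSL1 the first 8 genes had r from 0.980 to 0.988. They were AT3G07720, a kelch repeat gene (r = 0.988), IMA1 (0.986), ATPMEPCRB, of the pectin methylesterases (0.986), AT3G61930 (0.986), UGT72E1, a glucosyltransferase of phenylpropanoids (0.985), AT3G18560 (0.982), MTP8 (0.982) and AT5G66120 (0.980). AT3G07720 had a mean signal of 1252 with Fe and 14480 without in Col-0.

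For BTSL2 the first 8 genes had r from 0.975 to 0.983. They were AT3G61930 (r = 0.983), AT3G61410 (0.980), S8H (0.978), AT3G48450 (0.977), BGLU42 (0.977), CYP71B5 (0.976), AT5G38820 (0.975) and AT3G07720 (0.975). AT3G61930 and AT3G07720 stood in both lists. BTSL2 itself ranked 43 for BTSL1 (r = 0.959), and BTSL1 ranked 28 for BTSL2, so each gene was followed more closely by others than by its relative. The second BTSL1 probe set ranked 46 for the first one (r = 0.959), so that a rank of this size also separates readings of 1 gene.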

How the data were processed

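Roots of 3 genotypes at 2 iron supplies were hybridised to 18 ATH1 arrays, which per the labels are 3 biological replicates in every group. The authors deposited linear signal intensities, 1 value per probe set, with a 2% trimmed mean near 500 on each array. The sources used here do not name the summarising software. Of 22810 probe sets 64 controls were left out. Probe sets were named from the platform annotation and RefSeq, and 13513 named 1 gene. Signals were taken as log2(signal + 16) and fitted with limma 3.58.1 in R 4.3.3, all 6 groups in 1 fit with no covariate, p-values being adjusted over 22746 probe sets. Ratios and correlations were tested by permutation in Python 3.11.15. In simulated arrays with 200 changed probe sets, recovery for the Fe response of Col-0 was 95.5% at 4-fold, 59.7% at 2-fold and 25.4% at 1.5-fold.

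The pair and the gene lists were chosen with earlier results of these data known. Named genes were both members, up to 6 measured genes of each list, and the 8 genes most like each member. Replicate numbers were taken to pair arrays where every same-numbered pair's deviations correlated above 0.1, which held between the supplies in Col-0 (0.26, 0.11 and 0.15) and for CsUBC13-OE and Col-0 without Fe (0.30, 0.20 and 0.11). Alternatives covered scaling, the value added before the logarithm, dim probe sets, moderation, array weights, the replicate block, each array left out and, added after seeing the data, the second BTSL1 probe set and all alternatives for other named genes.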

Additional observations from a re-analysis of the deposited data

How the results depend on the processing

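The 6 Fe responses of BTSL1 and BTSL2 stayed called in all 93 refits, with values between 1.71 and 2.88 and adjusted p from limma up to 0.0415. With the replicate block in fits of the compared groups alone both genes stayed called in each genotype, while probe sets called fell from 970 to 405 in Col-0, from 984 to 161 in CsUBC13-OE and from 847 to 130 in ubc13A (595, 438 and 419 without the block); the fewer arrays in these fits are part of this, and the numbers pair the arrays only in Col-0. On the second BTSL1 probe set the call in CsUBC13-OE was lost under the block (adjusted p 0.0659). So were those of BHLH101 in ubc13A (0.0860) and of PYE, COSY and AT5G66120 in CsUBC13-OE (0.0525, 0.0514, 0.0588) and ubc13A (0.111, 0.0668, 0.0692).

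None of the 18 genotype differences and differences in Fe response was called in 315 refits, the lowest adjusted p being 0.189, but 30 refits turned the sign of a value, and the cause was not tested. Among these was the BTSL1 difference of ubc13A from CsUBC13-OE with Fe, -0.41 on the first probe set. The second BTSL1 probe set gave -0.62 and -0.078 for CsUBC13-OE minus Col-0 with and without Fe, 0.0045 for ubc13A minus Col-0 without Fe, 0.39 and 0.083 for ubc13A minus CsUBC13-OE, and 0.55 and -0.30 for the differences in response of CsUBC13-OE from Col-0 and of ubc13A from CsUBC13-OE. BTSL2 in CsUBC13-OE minus Col-0 with Fe was 0.00757 after quantile normalization, 0.000357 with 64 added and 0.15 with array weights, which also gave 0.0075 for ubc13A minus Col-0. Leaving out 1 array, BTSL1 ran from -0.056 to 0.17 (CsUBC13-OE minus Col-0 with Fe), -0.0056 to 0.15 (without), -0.11 to 0.11 (their responses) and -0.022 to 0.29 (response of ubc13A minus Col-0). With no change of sign, BTSL1 in ubc13A minus Col-0 ran from -0.46 to -0.15 with Fe and from -0.24 to -0.079 without, and in ubc13A minus CsUBC13-OE with Fe from -0.49 to -0.24. BTSL2 ran from -0.14 to 0.18 and -0.12 to 0.098 (CsUBC13-OE minus Col-0), -0.11 to 0.12 (ubc13A minus Col-0 with Fe), -0.21 to 0.12 (ubc13A minus CsUBC13-OE with Fe) and -0.22 to 0.10 (responses of CsUBC13-OE and Col-0). The ratio shift of the pair kept p at or under 0.043, and was 0.61 with the second probe set, which also gave correlations of 0.38 and 0.062. Among other genes AT3G62970 became 0.0021 and 0.041 in CsUBC13-OE and ubc13A after median centring and ran from -0.058 to 0.031, -0.18 to 0.056 and -0.11 to 0.13 without 1 array. BHLH104 became 0.0092 in Col-0 after centring and -0.060 in CsUBC13-OE with array weights, and ran from -0.079 to 0.13 in CsUBC13-OE and -0.047 to 0.22 in ubc13A without 1 array. The median SE of a difference between groups was 0.184 and of a difference in responses 0.261, which limits what 3 arrays a group can show.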

Other observations

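Without Fe the log2 ratio of the BTSL1 to the BTSL2 signal was 0.49 ± 0.053 in ubc13A, 0.84 ± 0.31 in Col-0 and 0.94 ± 0.062 in CsUBC13-OE (SD, n = 3). The 3 ubc13A arrays lay below the 3 CsUBC13-OE arrays, a difference of -0.45, and overlapped those of Col-0, from which they differed by -0.35. The split from CsUBC13-OE is no further result. Without Fe the BTSL1 signals of ubc13A lay below those of CsUBC13-OE and its BTSL2 signals above, both without overlap, so the ratios had to separate. How often ratios of other probe sets split ubc13A from CsUBC13-OE was not computed. For single probe sets without Fe, the ubc13A signals lay below without overlap for 7.23% and above for 9.98%. With Fe the ratios were 0.16 ± 0.39, 0.45 ± 0.51 and 0.54 ± 0.30, and all the groups overlapped. With the second BTSL1 probe set, the differences without Fe were -0.14 from CsUBC13-OE and -0.18 from Col-0, and the groups overlapped. This comparison was chosen after its values were seen and was not tested.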
